A study of Arabidopsis thaliana with 6 samples.

Results

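Plastid genes are transcribed by machinery that is itself encoded in the nucleus, and 10 genes of it are described here in Arabidopsis thaliana seedlings. They are the 6 sigma factors SIG1 to SIG6, the phage-type RNA polymerase RPOTp and 3 proteins first found in plastid transcriptionally active chromosomes, PTAC2, PTAC12 and PTAC14. They were taken by locus identifier, 10 of the 26800 identifiers used, and all 10 passed the filter on low counts. The genes were picked with the contrast between the groups already known, so their fold changes in that contrast, and whether the fit over all genes called them, only describe them and support nothing further.

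Counts per gene were deposited for 6 libraries of whole seedlings aged 12 days, grown at 22 °C in light of 100 µmol per square metre and second on 1/2 MS medium with 1% sucrose and 1% agar. Of these, 3 libraries are labelled vih1vih2, a double mutant in VIH1 and VIH2, and 3 are labelled wild type (Col-0). VIH1 and VIH2 are kinases that make the inositol pyrophosphate InsP8, which the series title presents as a signal of phosphate inside the cell. The sources used here name neither the alleles nor separately grown plants for each library, so p-values measure only the spread between these libraries, and the spread between libraries may be technical.

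In plastids, most genes of photosynthesis are read by a bacterial-type polymerase, PEP, whose core is encoded in the plastid genome itself. A nuclear sigma factor must join that core to direct it to a promoter, and a set of further nuclear proteins, among them the PTAC proteins, is bound to it in green tissue. RPOTp is a second, single-subunit enzyme of the kind found in bacteriophages, and it is known for reading housekeeping genes of the plastid, including genes of the PEP core.

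Levels are given as CPM, the count scaled to library size, after TMM scaling, with the mean ± SD over n = 3 libraries of a group. Each log2 fold change is libraries labelled vih1vih2 over libraries labelled wild type, ± its standard error, and a gene is "called" at an adjusted p under 0.05, from the quasi-likelihood test of edgeR adjusted by Benjamini-Hochberg over all 22818 genes tested. Total counts ran from 42697387 to 64410871 per library. Of all tested genes 40.9% were called, 21.4% as higher and 19.4% as lower in the libraries labelled vih1vih2, and the median over all of them was −0.002046 on the log2 scale. The mutated genes themselves went against the labels, since VIH2 had 33783, 35310 and 38660 counts in the libraries labelled vih1vih2 and 2759, 2783 and 2310 in those labelled wild type. VIH1 had 1737, 1524 and 1820 counts in the libraries labelled vih1vih2 and 325, 361 and 246 in those labelled wild type. Such counts say nothing of whether the RNA is whole, and every direction below rests on these labels.

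The stretches of 250 bases just before the annotated starts of 3 of the genes are shown because they hold, or lack, sites of regulators that act on phosphate and light responses. They were read from the RefSeq genome TAIR10.1, 5′ to 3′ along the gene's strand. Capitals mark matches on either strand to any of 5 motifs, which are the phosphate response site P1BS (GNATATNC), the G-box (CACGTG), the evening element (AAAATATCT), the CCA1 site (AAAAATCT) and the letters CCAATC. No matches in these genes overlapped one another.
SIG4, chr5:4430902-4431151, minus strand: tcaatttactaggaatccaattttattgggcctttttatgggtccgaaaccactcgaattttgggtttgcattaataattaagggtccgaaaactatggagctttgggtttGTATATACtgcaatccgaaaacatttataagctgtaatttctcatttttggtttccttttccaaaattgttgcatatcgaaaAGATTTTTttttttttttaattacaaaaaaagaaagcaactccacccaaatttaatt
PTAC2, chr1:28122578-28122827, minus strand: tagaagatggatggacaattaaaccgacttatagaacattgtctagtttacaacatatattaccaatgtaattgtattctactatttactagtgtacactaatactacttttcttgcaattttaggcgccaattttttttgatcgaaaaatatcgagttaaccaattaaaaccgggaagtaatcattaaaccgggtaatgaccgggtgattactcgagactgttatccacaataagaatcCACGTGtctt
SIG5, chr5:8160344-8160593, minus strand: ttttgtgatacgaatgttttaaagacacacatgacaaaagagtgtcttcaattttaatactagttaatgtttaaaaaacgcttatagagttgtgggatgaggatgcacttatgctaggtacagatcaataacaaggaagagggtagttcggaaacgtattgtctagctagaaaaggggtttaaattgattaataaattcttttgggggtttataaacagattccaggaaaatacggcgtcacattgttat

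Each of the 5 motifs was found in 1 of the 10 windows that run from 250 bases before to 50 after a start. The P1BS letters, which the phosphate regulator PHR1 binds, were in the SIG4 window, with its first base at position −139 from the start, beside 6.24% of 23932 such windows of protein-coding genes with a count row. The CCA1 site also lay in the SIG4 window, beside 7.83% of all windows. A G-box, the site of light-regulated bZIP and bHLH factors, began at position −10 from the PTAC2 start, beside 8.26% of all windows. The evening element was in the SIG3 window (2.91% of all), and CCAATC stood in the SIG2 window (12.5% of all). The SIG5 window held none of these letters, which says only that they are not in these bases.

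Among the sigma factors, SIG1, SIG3, SIG4 and SIG6 had every library labelled vih1vih2 below every library labelled wild type. Of all tested genes 27.5% did so, and nothing is read from it, since the genes were chosen on this contrast. SIG1 and SIG4 were called lower, and SIG3 and SIG6 were not called. SIG1 (AT1G64860, chr1:24097736-24100970, plus strand), whose phosphorylation is tied to the balance of the photosystems, had 30.5, 35.4 and 32.6 CPM in the libraries labelled vih1vih2 and 51.3, 44.1 and 42.2 CPM in those labelled wild type. The groups did not overlap, with a mean of 32.8 ± 2.45 CPM in libraries labelled vih1vih2 and 45.8 ± 4.82 CPM in those labelled wild type. Its log2 fold change was −0.48 ± 0.10, and it ran from −0.54 to −0.39 when 1 library was left out.

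SIG4 (AT5G13730, chr5:4429095-4430901, minus strand), known for transcribing a plastid gene of the NADH dehydrogenase-like complex, had 44.4, 39.3 and 42.1 CPM in the libraries labelled vih1vih2 and 49.3, 49.1 and 52.1 CPM in those labelled wild type. The libraries of each group lay close together and the log2 fold change was −0.26 ± 0.07. Its call was lost when any library other than vih1vih2 1 was left out, at −0.22 and −0.26 without vih1vih2 2 or 3 and at −0.27, −0.28 and −0.24 without wild type 1, 2 or 3. SIG4 shares 201 bases with AT5G13720 on the opposite strand, and the strand setting of the counting is not given in the sources used here.

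SIG6 (AT2G36990, chr2:15537225-15540139, minus strand), a factor needed for early greening of the seedling, had 36.7, 47.4 and 44.1 CPM in the libraries labelled vih1vih2 and 52.4, 53.7 and 56.3 CPM in those labelled wild type. The log2 fold change was −0.34 ± 0.11, not called with all libraries and called at −0.42 without vih1vih2 2. SIG3 (AT3G53920, chr3:19960789-19963980, minus strand), which is known for reading psbN, had 22.2, 39.4 and 36.8 CPM in the libraries labelled vih1vih2 and 44.9, 45.6 and 44.6 CPM in those labelled wild type. Library vih1vih2 1 was the low one, and the log2 fold change of −0.46 ± 0.22 became −0.24 without it.

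SIG5 (AT5G24120, chr5:8157151-8160343, minus strand), which blue light and stress induce and which serves the light-responsive promoter of psbD, had the lowest fitted change of the 10. It had 254, 277 and 334 counts, or 4.57, 5.46 and 6.26 CPM, in the libraries labelled vih1vih2, against 805, 265 and 641 counts, or 13.3, 5.70 and 15.7 CPM, in those labelled wild type. Wild type 2 lay among the libraries labelled vih1vih2, so the groups overlapped. The mean was 5.43 ± 0.846 CPM in libraries labelled vih1vih2 and 11.6 ± 5.22 CPM in those labelled wild type. The log2 fold change was −1.09 ± 0.39 and not called, and it was −1.42 and called without wild type 2. Over 16599 genes averaging at least 5 CPM, 513 had wild type 2 at least 2-fold below both other libraries so labelled, and for the other 5 libraries this number was 457 to 564.

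SIG2 (AT1G08540, chr1:2703295-2706860, plus strand), known for transcribing plastid tRNA genes, could not be read on its own. Its row held the same 6 counts as that of NPQ1 (AT1G08550), the violaxanthin de-epoxidase of photoprotection, which starts 7 bases beyond the end of SIG2 on the same strand. Rows that share all 6 counts with another made up 7.49% of those tested, and SIG2 was the only 1 of these 10 genes among them. The shared row had 98.4, 109 and 92.6 CPM in the libraries labelled vih1vih2 and 171, 65.1 and 71.9 CPM in those labelled wild type. Wild type 1 stood 2.63-fold above wild type 2, and the libraries labelled vih1vih2 lay between. The log2 fold change was −0.04 ± 0.40 with all libraries, 0.54 and called higher without wild type 1, and 0.01 without vih1vih2 3. Neither a change nor its absence can thus be assigned to SIG2.

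RPOTp (AT2G24120, chr2:10248851-10254641, minus strand), whose loss gives pale, rough leaves in the scabra3 mutant, was split within the libraries labelled vih1vih2. It had 2760, 2454 and 210 counts, or 49.6, 48.3 and 3.94 CPM, in the libraries labelled vih1vih2 and 1180, 934 and 1012 counts, or 19.5, 20.1 and 24.8 CPM, in those labelled wild type. Libraries vih1vih2 1 and 2 lay above every library labelled wild type and vih1vih2 3 lay below every such library. The mean was 34.0 ± 26.0 CPM in libraries labelled vih1vih2 and 21.5 ± 2.90 CPM in those labelled wild type, with a log2 fold change of 0.66 ± 0.86. Without vih1vih2 3 it was 1.19 and called higher, and without vih1vih2 1 or 2 it was 0.28 or 0.32 and not called. Among the 16599 genes of at least 5 CPM, 93 had vih1vih2 3 at least 10-fold below both other libraries so labelled, and for the other 5 libraries this number was 83 to 122.

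The related enzymes are outside the 10 genes. RPOTm (AT1G68990), the mitochondrial polymerase, had 33.2, 34.6 and 33.2 CPM in the libraries labelled vih1vih2 and 29.0, 26.8 and 27.5 CPM in those labelled wild type. It rose by 0.28 ± 0.06 on the log2 scale (adjusted p = 0.0187 by edgeR's quasi-likelihood test), a call lost without vih1vih2 2 or wild type 2 or 3, at 0.25, 0.25 and 0.26. RPOTmp (AT5G15700), which works in both organelles, had 13.9, 16.5 and 15.5 CPM in the libraries labelled vih1vih2 and 10.5, 15.7 and 12.6 CPM in those labelled wild type, at 0.25 ± 0.17 and not called.

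**Figure D1:**
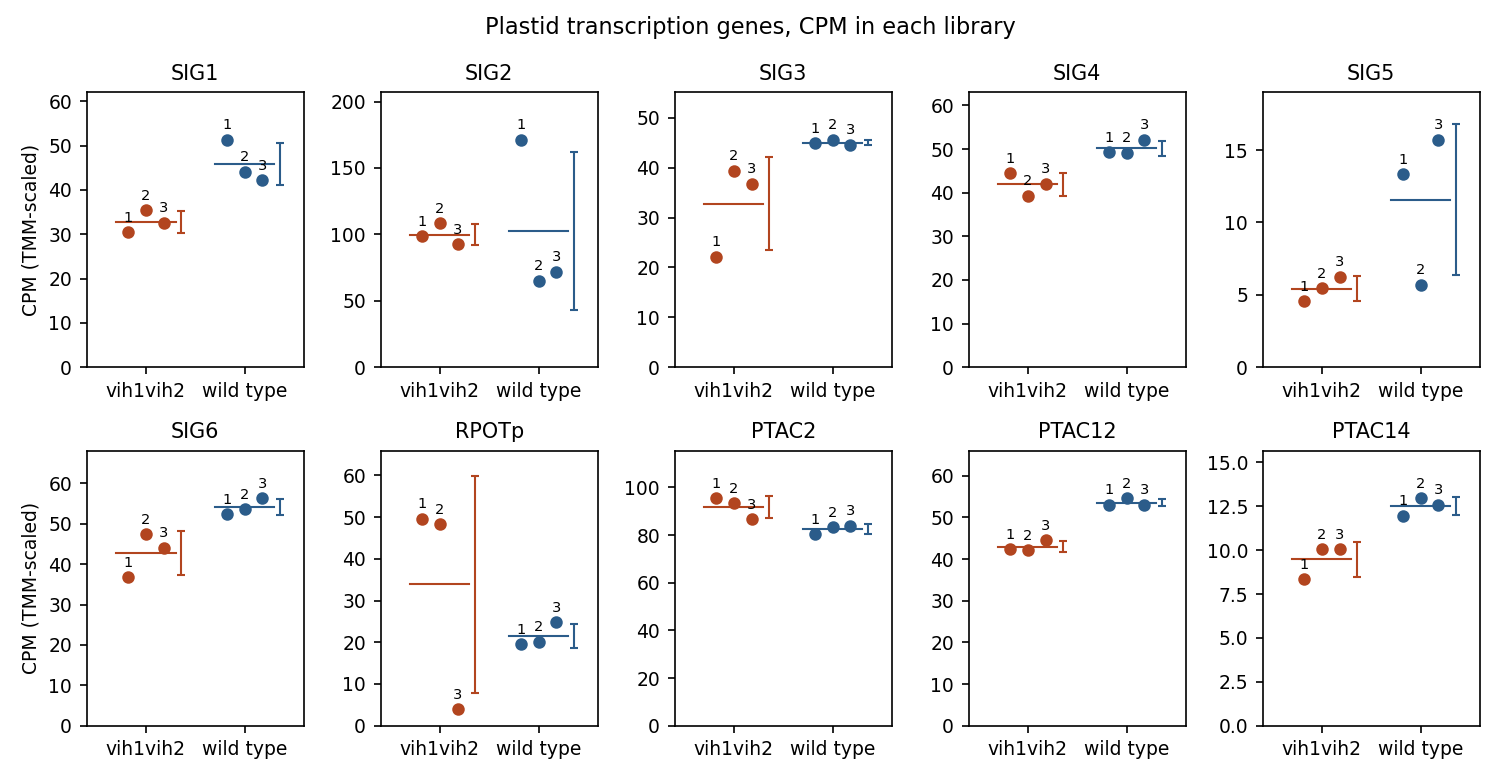
CPM after TMM scaling of the 10 genes in each library, with libraries labelled vih1vih2 on the left of each panel and those labelled wild type on the right; digits give the replicate, the flat line the mean and the bar beside it the SD (n = 3). Wild type 1 stands apart in the row shared by SIG2 and NPQ1, wild type 2 in SIG5 and vih1vih2 3 in RPOTp.

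The 3 PTAC proteins differed in direction. PTAC12 (AT2G34640, chr2:14581835-14584797, minus strand), also called HEMERA and known for acting in phytochrome signalling as well as in the plastid, had 42.3, 42.1 and 44.5 CPM in the libraries labelled vih1vih2 and 53.1, 54.6 and 53.0 CPM in those labelled wild type. The groups were far apart for their spread, with a log2 fold change of −0.32 ± 0.05, the smallest standard error of the 10, that ran from −0.34 to −0.30 without 1 library. It shares 22 bases with GPS1 on the opposite strand, which had 20.4, 23.1 and 16.9 CPM in the libraries labelled vih1vih2 and 12.9, 13.1 and 8.04 CPM in those labelled wild type.

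PTAC14 (AT4G20130, chr4:10878817-10882052, plus strand), a SET-domain protein of the PEP complex, had 464, 510 and 537 counts in the libraries labelled vih1vih2 and 723, 602 and 514 counts in those labelled wild type. On the CPM scale the mean was 9.48 ± 0.987 in libraries labelled vih1vih2 and 12.5 ± 0.506 in those labelled wild type. The groups did not overlap in CPM and the log2 fold change was −0.40 ± 0.11. Its call was lost when any 1 library was left out, at −0.31, −0.44 and −0.44 without vih1vih2 1, 2 or 3 and at −0.43, −0.38 and −0.40 without wild type 1, 2 or 3. PTAC2 (AT1G74850, chr1:28118664-28122577, minus strand), a pentatricopeptide repeat protein of the same complex, had 95.4, 93.3 and 86.6 CPM in the libraries labelled vih1vih2 and 80.2, 83.4 and 83.9 CPM in those labelled wild type. It was the only 1 of the 10 with every library labelled vih1vih2 above every library labelled wild type, at a log2 fold change of 0.15 ± 0.06, and it was not called.

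Over the 10 genes, 8 had a fitted log2 fold change below 0 and the median was −0.33; the 8 include the row that SIG2 shares with NPQ1, whose sign turned without wild type 1 or vih1vih2 3. With edgeR, 4 were called lower (SIG1, SIG4, PTAC12 and PTAC14), where 19.4% of all tested genes were, and 0 were called higher, where 21.4% were. At an unadjusted p under 0.05, 1 was higher and 6 were lower, beside 5810 higher and 5431 lower of all 22818 genes. DESeq2 called 1 higher (PTAC2) and 6 lower (the same 4, SIG5 and SIG6), beside 5800 higher and 5329 lower of all tested genes. In 6 of the 10 all libraries labelled vih1vih2 lay below all those labelled wild type, where 27.5% of tested genes did so, and in 1 they lay above, where 28.9% did (56.4% in either direction). Nothing is read from these counts, since the genes were chosen on this contrast. On the log2 scale 8 of the 10, the row of SIG2 among them, were closer to 0 than 0.5. The median distance from 0 over all tested genes was 0.471, and 3 of the 10 lay further out than that. The lower calls numbered 2 without vih1vih2 3, wild type 1 or wild type 3, and 3 without any other library. Of the 4, only SIG1 and PTAC12 kept their calls each time. The third call was SIG4 without vih1vih2 1, SIG6 without vih1vih2 2 and SIG5 without wild type 2. SIG1, SIG4 and PTAC14 were not called with a block for the replicate number (−0.48, −0.26 and −0.40) or at an adjusted p under 0.01. PTAC12 was called lower under both settings. A level in whole seedlings cannot tell fewer cells with plastids of a kind from less RNA per cell.

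**Figure D2:**
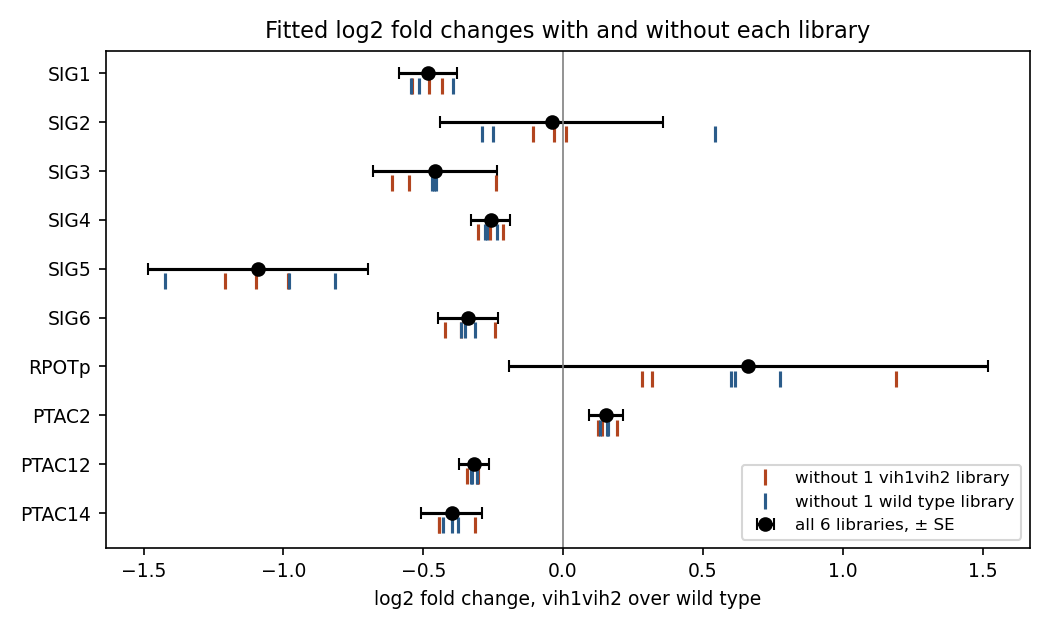
Fitted log2 fold change of each gene between libraries labelled vih1vih2 and wild type (black points, bars ± SE), with the values after leaving out 1 library as ticks. RPOTp reaches 1.19 without vih1vih2 3, SIG2 reaches 0.54 without wild type 1 and SIG5 reaches −1.42 without wild type 2, while PTAC12 stays between −0.34 and −0.30.

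Set per kilobase of annotated exon sequence, so that genes can be compared, the genes spanned a wide range of level. In libraries labelled vih1vih2, SIG4 led at 28.8 ± 1.78 CPM per kb, and PTAC2 followed at 26.8 ± 1.35, SIG6 at 20.9 ± 2.67, PTAC12 at 20.6 ± 0.623, SIG3 at 14.8 ± 4.18, SIG1 at 13.8 ± 1.03, RPOTp at 9.03 ± 6.92, PTAC14 at 4.74 ± 0.494 and SIG5 at 2.06 ± 0.321 CPM per kb. In libraries labelled wild type, SIG4 led at 34.5 ± 1.16 CPM per kb, and SIG6 followed at 26.5 ± 0.992, PTAC12 at 25.7 ± 0.428, PTAC2 at 24.1 ± 0.582, SIG3 at 20.3 ± 0.227, SIG1 at 19.3 ± 2.03, PTAC14 at 6.25 ± 0.253, RPOTp at 5.71 ± 0.770 and SIG5 at 4.39 ± 1.98 CPM per kb. Neighbours whose libraries overlapped among those labelled vih1vih2 were SIG4 with PTAC2, SIG6 with PTAC12, SIG3 with SIG1, SIG1 with RPOTp and RPOTp with PTAC14. Among those labelled wild type they were SIG6 with PTAC12, SIG3 with SIG1, PTAC14 with RPOTp and RPOTp with SIG5. SIG2 is left out because its row cannot be separated from NPQ1.

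**Figure D3:**
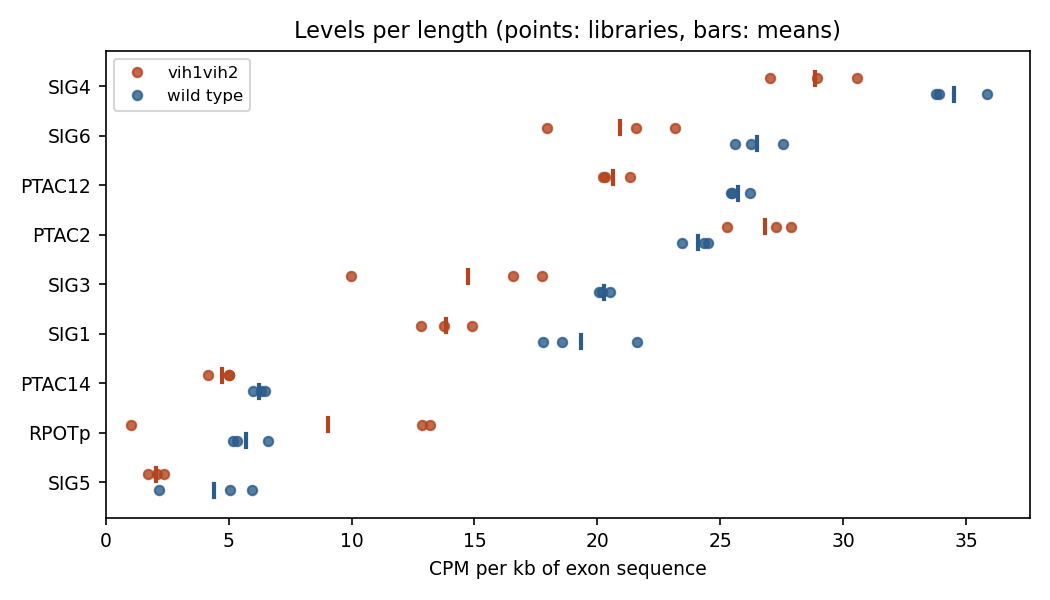
CPM per kb of exon sequence for 9 of the genes, in order of the mean in libraries labelled wild type, with libraries labelled vih1vih2 drawn above those labelled wild type; points are libraries and bars are means. SIG4 has the highest mean and SIG5 the lowest in both groups, while in vih1vih2 3 RPOTp (1.05) lies below SIG5 (2.38).

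The genes with the nearest profiles were looked up for RPOTp and SIG5, which had the highest and the lowest fitted change. Likeness was the Euclidean distance of log2(CPM + 0.5), set against the wild type mean, over the 6 libraries and 16589 genes of at least 5 CPM. Nearest to RPOTp was AT1G25370 at a distance of 0.419, with 17.3, 16.1 and 0.918 CPM in the libraries labelled vih1vih2 and 8.19, 6.71 and 9.14 CPM in those labelled wild type. AT5G16360 and ESE3 followed at 0.550 and 0.781. Nearest to SIG5 was AT5G01650 at 0.370, with 18.1, 18.7 and 20.6 CPM in the libraries labelled vih1vih2 and 44.0, 23.7 and 45.5 CPM in those labelled wild type, and AT2G32870 and AT1G61740 followed at 0.375 and 0.424. These genes were picked for likeness over the same 6 libraries, so that they are low in the same library follows from the choice.

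**Figure D4:**
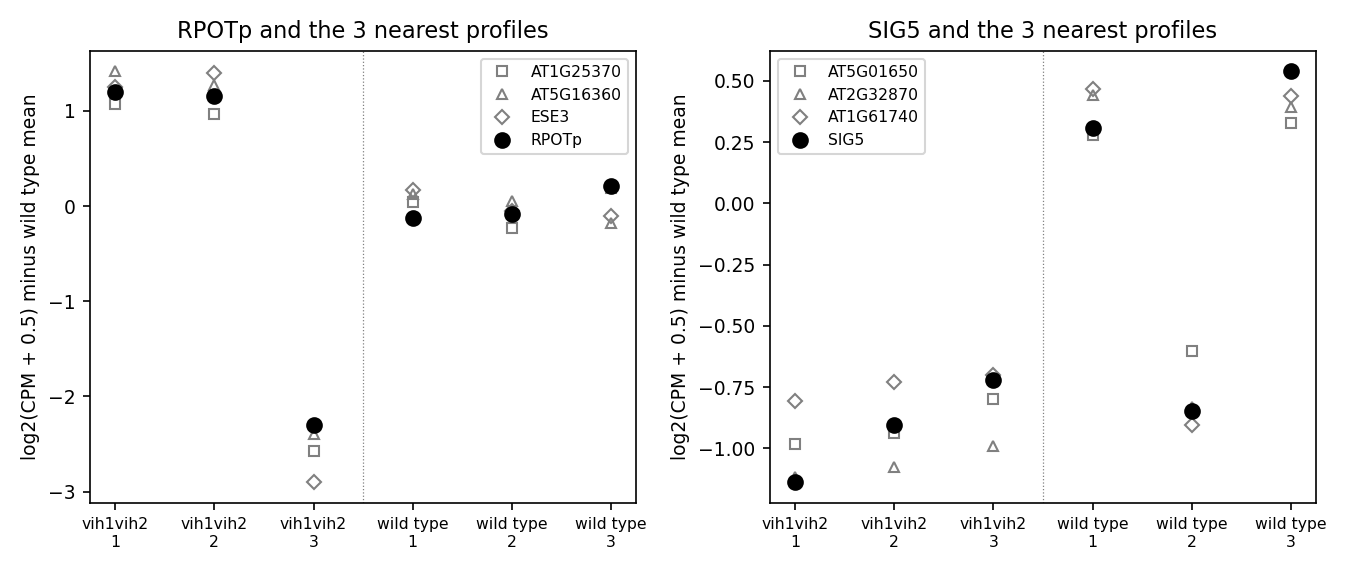
Profiles of RPOTp (left) and SIG5 (right) with their 3 nearest genes, as log2(CPM + 0.5) minus the mean of the libraries labelled wild type, in each library. The nearest genes were picked on these same values; their distances run from 0.419 to 0.781 for RPOTp and from 0.370 to 0.424 for SIG5.

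Of 10 other proteins bound to PEP, 2 rose, 4 fell and 4 were not called, beside 21.4% higher and 19.4% lower over all tested genes, and their median log2 fold change was −0.30. This list and those that follow were also drawn up with earlier results of these data known. FLN1, a fructokinase-like protein of the complex, fell to 56.5, 52.0 and 55.9 CPM in the libraries labelled vih1vih2, against 72.3, 73.4 and 72.4 CPM in those labelled wild type. Its log2 fold change was −0.41 ± 0.06 (adjusted p = 0.00337 by edgeR's quasi-likelihood test). PTAC7, another subunit, was at −0.42 ± 0.08 and fell as well. FSD2 and FSD3 are iron superoxide dismutases that protect the nucleoid, and they went opposite ways. FSD3 rose to 27.9, 29.1 and 31.3 CPM in the libraries labelled vih1vih2, against 21.2, 15.7 and 21.8 CPM in those labelled wild type, at 0.59 ± 0.15, a call lost without vih1vih2 1, 2 or 3 (0.63, 0.60 and 0.54), so that 1 gene rose. FSD2 fell at −0.43 ± 0.11, a call lost without vih1vih2 2 or wild type 1, 2 or 3 (−0.47, −0.45, −0.42 and −0.45). The thioredoxin TRXz also rose, at 0.40 ± 0.07, but its row holds the same counts as AT3G06720, so the rise cannot be assigned to it. PTAC6 was not called, at −0.12 ± 0.06.

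Further proteins of the transcriptionally active chromosome mostly fell, with 7 of 10 tested lower and 3 not called. Over all tested genes 19.4% were lower and 21.4% higher, and the median of this list was −0.59. PTAC16 had 415, 409 and 356 CPM in the libraries labelled vih1vih2 and 864, 1063 and 911 CPM in those labelled wild type. Its log2 fold change was −1.27 ± 0.10 (adjusted p = 0.000456 by edgeR's quasi-likelihood test). CURT1B, which bends thylakoid membranes at the grana margins, had 52.0, 55.4 and 56.2 CPM in the libraries labelled vih1vih2 and 96.1, 96.6 and 90.9 CPM in those labelled wild type, at −0.79 ± 0.06. PTAC5 and OSB2, a protein that binds single-stranded organellar DNA, were at −0.76 ± 0.08 and −0.71 ± 0.11. PTAC13 was not called, at 0.19 ± 0.09, and shares its counts with AT3G09200.

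Among regulators of the system, 1 of 13 tested rose, 4 fell and 8 were not called, beside 21.4% higher and 19.4% lower over all tested genes, and the median was 0.05. The falls numbered 2 without any 1 of the libraries labelled vih1vih2 or without wild type 1, and the rises numbered 2 without wild type 2. SIB1, a nuclear- and plastid-targeted protein that binds SIG1, rose to 8.02, 9.49 and 9.07 CPM in the libraries labelled vih1vih2, against 2.94, 2.82 and 2.43 CPM in those labelled wild type. Its log2 fold change was 1.70 ± 0.13 (adjusted p = 0.000359 by edgeR's quasi-likelihood test). GLK2, an activator of nuclear photosynthesis genes, fell to 58.1, 64.7 and 64.5 CPM in the libraries labelled vih1vih2, against 102, 103 and 100.3 CPM in those labelled wild type, at −0.70 ± 0.06. GLK1, also in this list and named after its value was seen, was not called, at 0.44 ± 0.19. The plastid casein kinase CKA4, which phosphorylates sigma factors, fell at −0.33 ± 0.06. CSK, a sensor kinase that acts on SIG1, was at −0.37 ± 0.09, a call lost without vih1vih2 1, 2 or 3 or wild type 1 (−0.38, −0.36, −0.37 and −0.39). NCP, at −0.43 ± 0.12, shares its counts with AT2G31830 and lost its call without any 1 library, with values from −0.49 to −0.33. GUN1, of signalling from plastid to nucleus, was not called, at 0.06 ± 0.06, and it was at −0.0001343 without wild type 3.

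Of the nuclear genes for the plastid ribosome, 14 of 15 fell (12 or 13 without 1 library), beside 19.4% lower over all tested genes. Their median was −0.90. PRPL4 had 313, 308 and 312 CPM in the libraries labelled vih1vih2 and 652, 647 and 656 CPM in those labelled wild type, at −1.07 ± 0.03. PRPS20, among the 14, shares its counts with AT3G15180, so its fall cannot be assigned. PRPL15 was at −1.27 ± 0.36 and lost its call without vih1vih2 1, 2 or 3, at −1.315 to −1.225. PRPL11 and PRPL13 were at −0.97 ± 0.09 and −1.19 ± 0.15. PRPS17 was the gene not called, at 1.04 ± 0.46, with 266, 241 and 82.7 CPM in the libraries labelled vih1vih2 and 116, 74.4 and 97.3 CPM in those labelled wild type. Here, as for RPOTp, vih1vih2 3 was the low library, and without it PRPS17 was called higher at 1.41.

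Genes that keep up plastid DNA gave 1 call among 8 tested, beside 40.9% called over all tested genes. The call was MFP1, a nucleoid- and thylakoid-bound protein, which fell at −0.72 ± 0.04. The organellar DNA polymerase POLIB was not called, at −0.10 ± 0.08, and shares its counts with AT3G20530. Of 8 genes of plastid division 3 fell, beside 19.4% lower over all tested genes. Among the 3 were FTSZ2-1, of the division ring, at −0.90 ± 0.16, and MINE, which places that ring, at −0.63 ± 0.06. The third, ARC5, a dynamin-related protein, was at −0.40 ± 0.11 and lost its call without vih1vih2 2 or wild type 1, 2 or 3 (−0.43, −0.42, −0.44 and −0.36). FTSZ1 was not called, at −0.73 ± 0.45.

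**Figure D5:**
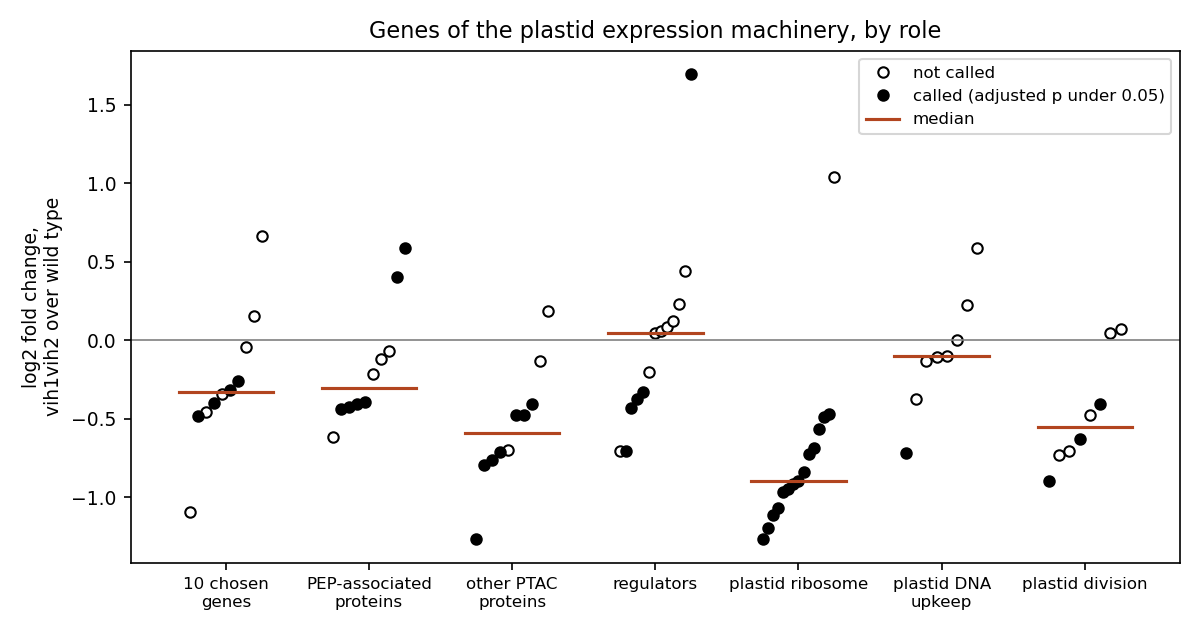
Log2 fold change between libraries labelled vih1vih2 and wild type of each tested gene, grouped by role; filled points were called at an adjusted p under 0.05 and lines are medians. The plastid ribosome genes have a median of −0.90 and the 10 chosen genes one of −0.33.

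Of the markers of green tissue, all 8 tested fell, beside 19.4% lower over all tested genes. LHCA1 was at −2.10 ± 0.08 and CAB3 at −1.31 ± 0.02. The summed level of the 8 was 17298 to 18508 CPM in the libraries labelled vih1vih2 and 38895 to 40180 CPM in those labelled wild type. Among these, PSBP1 shares its counts with AT1G06670, so its fall cannot be assigned. Of 12 root markers, 6 fell, beside 19.4% lower and 21.4% higher over all tested genes. The falls included the Casparian strip genes CASP1 at −1.43 ± 0.07 and CASP5 at −2.59 ± 0.18. The root stem cell gene WOX5, named after its value was seen, rose at 0.87 ± 0.22, while PLT1, among the 6, fell at −1.42 ± 0.14. A further 5 root markers were not called, among them SCR at 0.68 ± 0.33. The rises numbered 0 without vih1vih2 2 or 3 or wild type 1 or 3, and 2 without wild type 2, where SCR was called at 0.37. The sum of the root markers was 138 to 148 CPM in the libraries labelled vih1vih2 and 160 to 188 CPM in those labelled wild type, and no marker of either list was at 0 in any library. The root sum includes the row of CASP4, not called, which shares its counts with AT5G06210 and cannot be assigned to it. Rows whose identifiers start with ATCG, the prefix of the chloroplast genome, had 4 higher and 32 lower among 91 tested. Over all tested genes 21.4% were higher and 19.4% lower. The median of the ATCG rows was −0.59. Their sum was 1269 to 1514 CPM in the libraries labelled vih1vih2 and 1964 to 2043 CPM in those labelled wild type. The part of tissue makeup in the results above was not tested.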

How the data were processed

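The authors deposited a table of raw counts, a row per gene and a column per library. CASAVA 1.4, STAR 2.5.3a, StringTie 1.3.3b and the build TAIR10 are named in the submitters' processing notes, and which of them gave the counts is not given in the sources used here. Per the labels' protocols, a directional kit was used. Of 27080 rows, 280 with identifiers of 6 digits repeated other rows and were left out. Locus positions, exon lengths and promoters came from RefSeq TAIR10.1, and 26505 identifiers matched a locus tag; the counts carry no coordinates.

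Counts were filtered with filterByExpr, TMM-scaled and fitted with edgeR 4.0.16 in R 4.3.3 (glmQLFit and glmQLFTest, group as the only term), with standard errors taken as |log2 fold change| divided by the root of the F statistic. 1 count was worth 0.0165 to 0.0245 CPM, and replicate pairs differed by a chi-square of 117 to 143 per degree of freedom, so none was a copy. The fit was tested on simulated data. The genes and lists were chosen with earlier results of these data known. From each list, the up to 5 called genes of largest change with at least 1 CPM and the best-expressed gene not called could be named. The 3 lists of plastid-encoded genes were not analysed here, since neither the table nor the annotation pairs their identifiers with names, and 3 other listed genes had no row. Same-numbered libraries did not deviate together (r = 0.031, −0.026 and −0.0145). Alternatives were the edgeR fit with RLE scaling in place of TMM, and the Wald test of DESeq2 1.42.0. Further ones were other filters, a block for the replicate number, fits without each library, rows of organelle genes removed and a threshold of 0.01. Figures used matplotlib 3.10.9.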

Additional observations from a re-analysis of the deposited data

How the results depend on the processing

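Some counts of called genes moved by more than 1.5 times, or to or from 0. This happened with the replicate block, the threshold of 0.01, the DESeq2 Wald test, the filter of 5 CPM and every fit without 1 library. None moved with RLE scaling, without the low-count filter or with organelle rows removed. With the replicate number as a block, 1 of the 10 chosen genes was called lower, 1 PEP-associated protein rose and 2 fell, 2 regulators fell, SIG2 was at 0.1073, and RPOTp was at 0.17, against 0.66 without it. Whether the numbers pair the libraries cannot be told, since all correlations of deviations between libraries of the groups were weak, from −0.0328 to 0.0469. With the block 3463 genes rose and 3020 fell over all tested genes. At a threshold of 0.01, stricter by construction, 3136 genes rose and 2623 fell, with 1 of the 10 lower, 1 PEP-associated protein higher, 1 regulator lower and 0 root markers higher. With the DESeq2 Wald test 1 of the 10 (PTAC2) was higher, as was 1 gene of plastid DNA. With a filter of 5 CPM in 3 libraries 0 root markers rose, since fewer genes were tested.

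When each library was left out, 4130 to 4377 genes rose and 3684 to 3775 fell. Of the 10 genes 0 to 1 were called higher and 2 to 3 lower. The ranges were 1 to 2 higher and 3 to 4 lower for PEP-associated proteins, 6 to 7 lower for other PTAC proteins, 1 to 2 higher and 2 to 3 lower for regulators, and 0 to 1 higher and 12 to 13 lower for the plastid ribosome. They were 1 lower for plastid DNA, 2 to 3 lower for division, 7 to 8 lower for green tissue, and 0 to 2 higher and 6 to 7 lower for roots. SIG2 ran from −0.2909 to 0.544, reversed at 0.01005 without vih1vih2 3 and at 0.544 without wild type 1. The GUN1 log2 fold change ran from −0.0001343, reversed without wild type 3, to 0.09707; the cause was not tested. Promoter motifs kept their counts in the last 200 bases. The lowest count among the 10 genes was 210, for RPOTp in vih1vih2 3.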
